A study of Mus musculus with 8 samples.

Results

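Cathepsins are the proteases of endosomes and lysosomes, and the genes described here are 10 that act on antigen in these compartments: Ctsl, Ctss, Ctsb, Ctsh and Ctsz (cysteine cathepsins), Ctsd (an aspartic cathepsin), Lgmn (asparaginyl endopeptidase), Prss16 (thymus-specific serine protease), Ifi30 (the thiol reductase GILT) and Cst3 (cystatin C, a secreted inhibitor of cysteine cathepsins). They were chosen by name as the endosomal antigen-processing genes, with earlier results of these data known. All 10 were found by Ensembl identifier among the 25466 genes of the count table and passed the filter on low counts. The libraries are bulk RNA-seq of medullary thymic epithelial cells (mTECs) sorted from BL6N6 wild-type mice aged 4 to 6 weeks as CD45neg Epcampos CDR1neg cells, and then divided by surface MHC class II (MHCIIlo or MHCIIhi) and by Tspan8, a tissue-restricted antigen (Tspan8neg or Tspan8pos). Each of the 4 subsets has 2 libraries, labelled as biological replicates, and the mice were wild-type with no treatment named. The sources used here do not say how many mice were pooled for a library. The p-values therefore measure the spread between these libraries, estimated over all 4 subsets together.

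In thymic epithelium, self proteins that reach endosomes are cut by cathepsins, the invariant chain (Cd74) is removed from MHC class II in steps, and the freed groove is loaded with peptide. Cathepsin L is known as the main invariant chain protease of cortical thymic epithelial cells (cTECs), whereas cathepsin S has that role in dendritic cells and B cells. Prss16 is likewise known as a cTEC protease that shapes the CD4 T cell repertoire, and legumain and cathepsin D cut antigen in lysosomes, while GILT reduces disulphide bonds so that proteases can reach folded proteins.

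Library totals ranged from 1941518 to 7783841 counts, and the members' own counts from 36 to 6273 per library, so all 10 genes lay above the limit of 3 counts used here for detection. Levels below are TMM-normalised CPM, the counts of a gene relative to the size of its library, and a gene was called different where the adjusted p of edgeR's quasi-likelihood test, over 17006 genes, was under 0.01 and the log2 fold change at least 1 in size. The sort markers followed the labels: Tspan8 lay between 3.65 and 14.6 CPM in the Tspan8neg libraries and between 347 and 404 CPM in the Tspan8pos libraries, and H2-Ab1 was higher in the MHCIIhi than in the MHCIIlo subset on either side of the Tspan8 gate. Neither MHCII class was 1 level, however. H2-Ab1 was at 2074 and 1700 CPM in Tspan8neg MHCIIlo and at 518 and 489 CPM in Tspan8pos MHCIIlo. In MHCIIhi it was at 4988 and 5098 CPM in Tspan8neg and at 2431 and 2619 CPM in Tspan8pos. Tspan8pos MHCIIhi was only 1.34-fold above Tspan8neg MHCIIlo for H2-Ab1, which was not called (log2 0.42, SE 0.12, edgeR adjusted p = 0.0154). A list of 7 mTEC markers summed to between 2727 and 4452 CPM in the 8 libraries, and a list of 8 cTEC markers to 390 to 481 CPM in Tspan8neg MHCIIlo, 868 to 1001 in Tspan8neg MHCIIhi, 560 to 567 in Tspan8pos MHCIIhi and 228 to 254 in Tspan8pos MHCIIlo. In bulk libraries, fewer cells that express a gene and less RNA per cell cannot be told apart.

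The 10 genes did not move as one group. Ctsl and Prss16 were highest in Tspan8neg MHCIIlo, Ctss, Ctsz and Ifi30 were highest in Tspan8neg MHCIIhi, and Ctsd and Ctsb were high in both Tspan8pos subsets. Ctsh was low in Tspan8neg MHCIIlo alone, and Cst3 and Lgmn were called in none of the 4 comparisons between neighbouring subsets. The plot of levels by subset shows these patterns.

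**Figure D1:**
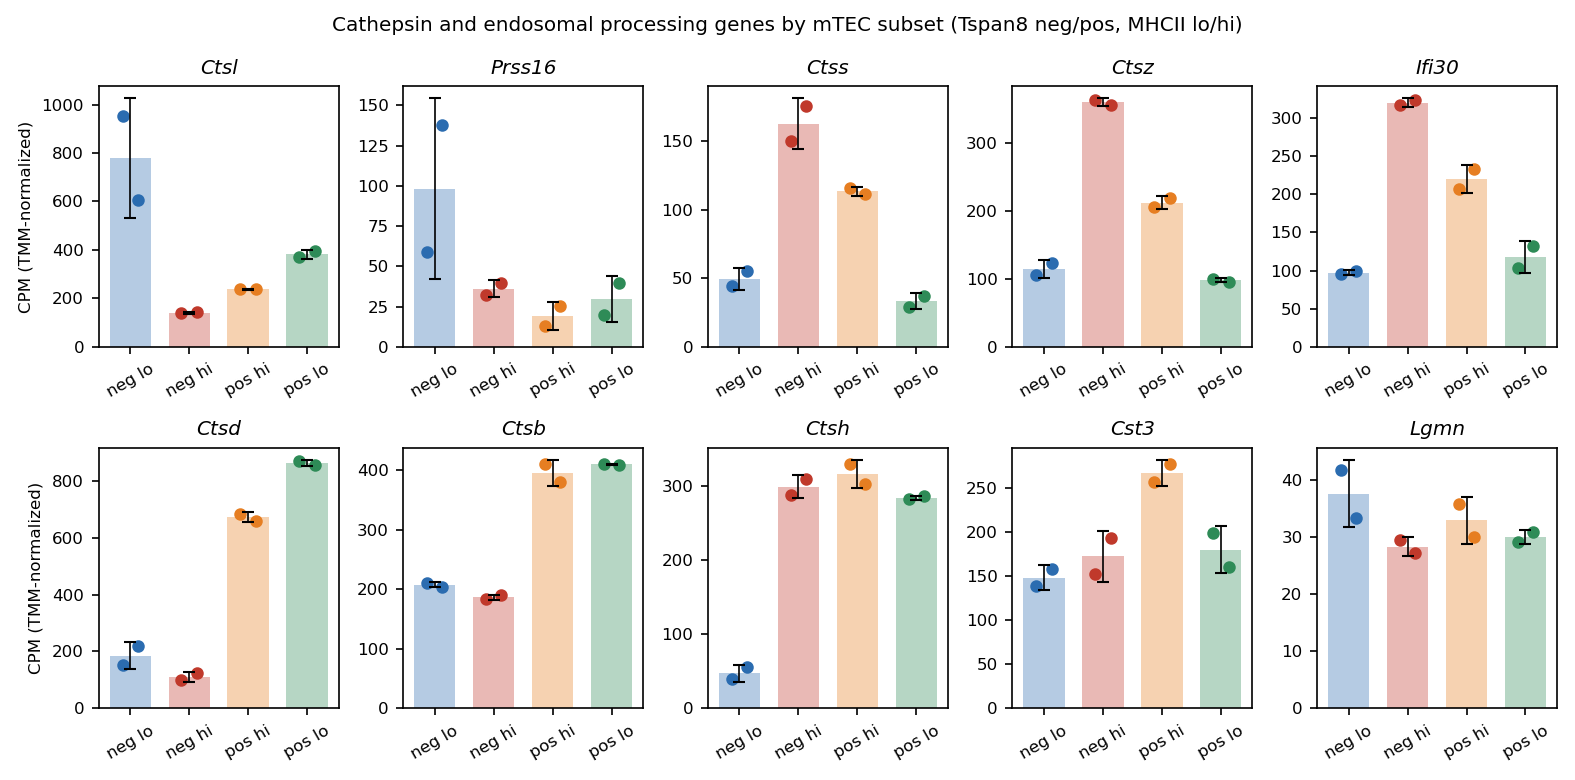
Level of each of the 10 genes in CPM (TMM-normalized, linear axis from 0) in the 4 mTEC subsets, where neg or pos is Tspan8 and lo or hi is MHCII. Points are the 2 libraries of a subset, bars their mean and lines the SD. Ctsl reaches 953 and 605 CPM in neg lo, Ctsz 364 and 356 CPM in neg hi, Ctsd 871 and 856 CPM in pos lo, and Ctsh stays at 39.6 and 55.9 CPM in neg lo only.

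Because the lysosomal genes are known targets of TFEB and related factors, which bind the E-box CACGTG, and the antigen-presentation genes respond to interferon, the stretches upstream of the members were read for these and for STAT and ETS motifs, and 3 with matches in members that differed between subsets are shown. Promoter sequences come from RefSeq (GRCm38.p6), where 7 of the 10 members had an entry. Ctsb, Ctsh and Prss16 had none. The 250 bases before the annotated start are given 5′ to 3′ on the gene's own strand for Ctss (chr3:95526536-95526785, plus strand) and Ifi30 (chr8:70766664-70766913, minus strand), with matches to GAAANNGAA or CACGTG in capitals. For Ctsd, 30 bases around a match to TCACGTGA (in capitals) are shown (chr7:142387908-142387937, minus strand), which lie inside exon 1 of a longer Ctsd transcript in GENCODE, since the RefSeq start is 211 bp downstream of the outermost GENCODE start.
Ctss: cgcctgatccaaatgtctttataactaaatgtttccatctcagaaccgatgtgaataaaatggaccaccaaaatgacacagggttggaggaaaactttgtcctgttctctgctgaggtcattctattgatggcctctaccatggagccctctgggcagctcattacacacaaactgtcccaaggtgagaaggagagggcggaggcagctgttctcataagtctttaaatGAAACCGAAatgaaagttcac
Ifi30: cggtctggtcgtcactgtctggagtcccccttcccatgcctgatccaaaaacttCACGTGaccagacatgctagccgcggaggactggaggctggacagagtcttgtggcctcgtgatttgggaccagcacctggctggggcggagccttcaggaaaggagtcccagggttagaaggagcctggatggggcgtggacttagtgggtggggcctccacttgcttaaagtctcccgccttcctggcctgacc
Ctsd: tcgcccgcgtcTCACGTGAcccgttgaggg

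CACGTG, which reads the same on both strands, was found in the windows of 4 of the 7 members. These were Ctsd (at -245 and -98 from the RefSeq start, counted at the first base of the match), Ctsl (-236), Ifi30 (-196) and Lgmn (-49, in 1 of its promoter entries). It occurs in 6.02% of all 32851 RefSeq promoter windows of this length. The longer TCACGTGA, which contains CACGTG, was found in Ctsd and Ifi30 and occurs in 0.785% of all windows. GAAANNGAA, a short form of the interferon-response element, was found in Ctss alone, 21 bases before the start, and occurs in 7.13% of windows on either strand. TTCNNNGAA, a STAT core (7.02% of windows), and CCGGAA, an ETS core (12.0% of windows), had no match in the 7 members. The 4 members with CACGTG were spread over 4 different patterns of level: Ctsd was high in Tspan8pos libraries, Ctsl in Tspan8neg MHCIIlo and Ifi30 in Tspan8neg MHCIIhi, while Lgmn differed little. For Ctsl the RefSeq start is 370 bp downstream of the outermost GENCODE start, so that its window does not precede every Ctsl transcript. The Lgmn entry with the match starts 721 bp downstream of the outermost GENCODE start, so this match lies inside the gene. The other Lgmn entry had no match. A match is only a description of the letters.

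Ctsl (cathepsin L, chr13:64359337-64370890, minus strand) was measured at 953 and 605 CPM in Tspan8neg MHCIIlo, at 138 and 142 CPM in Tspan8neg MHCIIhi, at 237 and 237 CPM in Tspan8pos MHCIIhi and at 370 and 396 CPM in Tspan8pos MHCIIlo. No libraries overlapped between subsets. Within Tspan8neg cells it was 5.55-fold lower in MHCIIhi than in MHCIIlo (log2 fold change -2.47, SE 0.19, edgeR adjusted p = 4.69e-06), the strongest fall of any member in the comparisons made here. Within Tspan8pos cells it was 1.62-fold lower in MHCIIhi, which was not called (log2 -0.69, SE 0.19, edgeR adjusted p = 0.0257). The Tspan8 difference had opposite signs in the MHCII classes: -1.02 (SE 0.19) in MHCIIlo, edgeR adjusted p = 0.00116, and 0.76 (SE 0.19) in MHCIIhi, edgeR adjusted p = 0.00804, the latter under the fold limit. The test of that difference itself, the interaction of Tspan8 and MHCII, gave a log2 value of -1.78 (SE 0.26, edgeR adjusted p = 0.00198).

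The Tspan8 call in MHCIIlo rests in part on the higher of the Tspan8neg MHCIIlo libraries: without it (replicate 1) the log2 fold change was -0.67, under the fold limit. Leaving out either Tspan8pos MHCIIlo library raised its edgeR adjusted p above 0.01 (0.0151 and 0.0136). The interaction call was lost without any 1 library of the Tspan8neg MHCIIhi, Tspan8pos MHCIIhi or Tspan8pos MHCIIlo subsets (6 of 8 fits, edgeR adjusted p of 0.011 to 0.0172), with log2 values between -1.84 and -1.69, and the fall with MHCII in Tspan8neg cells was called in all 8.

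Prss16 (chr13:22002173-22009742, minus strand) was also highest in Tspan8neg MHCIIlo, at 58.7 and 138 CPM. It was at 32.2 and 39.7 CPM in Tspan8neg MHCIIhi, at 13.1 and 25.2 CPM in Tspan8pos MHCIIhi and at 19.8 and 39.7 CPM in Tspan8pos MHCIIlo. Tspan8pos MHCIIlo overlapped both MHCIIhi subsets, and only Tspan8neg MHCIIlo stood clear of the rest. In MHCIIlo cells Prss16 was 3.07-fold lower in Tspan8pos (log2 -1.62, SE 0.41, edgeR adjusted p = 0.00854). This call was lost in 5 of the 8 fits without 1 library. Without replicate 2 of Tspan8neg MHCIIlo the log2 fold change was -0.84 with an edgeR adjusted p of 0.0601, and without replicates 1 or 2 of Tspan8pos MHCIIlo it was -1.32 and -2.31 (edgeR adjusted p of 0.0639 and 0.0211). Leaving out either Tspan8neg MHCIIhi library gave 0.0119 and 0.0122. The fall with MHCII in Tspan8neg cells had a log2 fold change of -1.45 (SE 0.39, edgeR adjusted p = 0.0118) and was not called, although it was called by DESeq2 (log2 -1.36, adjusted p = 0.00226) and by edgeR without replicate 1 of Tspan8neg MHCIIlo (log2 -1.94, adjusted p = 0.00011).

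Prss16 was set beside markers of other cells. A list of 8 thymocyte markers summed to 352 and 997 CPM in Tspan8neg MHCIIlo and to between 66.5 and 212 CPM in the other subsets, with no marker at 0 in any library. Psmb11, the cTEC proteasome subunit, is 1 gene of the cTEC list. It was at 6.46 and 18.9 CPM in the Tspan8neg MHCIIlo libraries and between 2.20 and 8.97 CPM elsewhere. Prss16, Psmb11 and the thymocyte sum were each higher in replicate 2 than in replicate 1 in all 4 subsets. The summed cTEC list, in contrast, was higher in Tspan8neg MHCIIhi than in Tspan8neg MHCIIlo. Outside Tspan8neg MHCIIlo, the mean of Prss16 was highest in Tspan8neg MHCIIhi (36.0 CPM), and the thymocyte sum in Tspan8pos MHCIIlo (124 and 212 CPM). The part of cTECs or thymocytes in the Prss16 values was not tested.

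Ctss (cathepsin S, chr3:95526786-95556403, plus strand) rose with MHCII on both sides of the Tspan8 gate. It was at 44.1 and 55.4 CPM in Tspan8neg MHCIIlo and at 149.9 and 176 CPM in Tspan8neg MHCIIhi, a 3.27-fold difference (log2 1.71, SE 0.17, edgeR adjusted p = 2.14e-05). In Tspan8pos cells it was at 29.1 and 37.4 CPM in MHCIIlo and at 116 and 111 CPM in MHCIIhi, a 3.32-fold difference (log2 1.73, SE 0.18, edgeR adjusted p = 7.97e-05). The rise was of like size in the Tspan8 classes, with an interaction of -0.02 (SE 0.24) that did not pass the test (edgeR adjusted p = 0.98). At either MHCII level Ctss was lower in Tspan8pos than in Tspan8neg libraries, without overlap, but by log2 values of only -0.54 (SE 0.18) and -0.52 (SE 0.16), which were not called.

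Ctsz (cathepsin X, a carboxypeptidase, chr2:174427493-174439039, minus strand) followed a pattern close to that of Ctss. It was at 105 and 124 CPM in Tspan8neg MHCIIlo, at 364 and 356 CPM in Tspan8neg MHCIIhi, at 205 and 219 CPM in Tspan8pos MHCIIhi and at 101 and 95.8 CPM in Tspan8pos MHCIIlo. The MHCIIlo libraries were alike across Tspan8 and all MHCIIhi libraries were above them. It was 3.14-fold higher with MHCII in Tspan8neg cells (log2 1.65, SE 0.13, edgeR adjusted p = 6.16e-06) and 2.17-fold higher in Tspan8pos cells (log2 1.12, SE 0.14, edgeR adjusted p = 0.000267). The second of these calls was lost without replicate 2 of Tspan8pos MHCIIlo (edgeR adjusted p = 0.0106). In MHCIIhi cells it was 1.70-fold lower in Tspan8pos, under the fold limit (log2 -0.76, SE 0.13, edgeR adjusted p = 0.000884). Exons of Ctsz overlap Nelfcd on the opposite strand, which had 48 to 227 counts against at least 183 for Ctsz, and whether the counting used strand is not settled by the sources.

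Ifi30 (GILT, chr8:70762774-70766663, minus strand, annotated as a processed transcript in GENCODE vM21) was at 94.9 and 99.5 CPM in Tspan8neg MHCIIlo, at 317 and 324 CPM in Tspan8neg MHCIIhi, at 207 and 233 CPM in Tspan8pos MHCIIhi and at 103 and 132 CPM in Tspan8pos MHCIIlo. The MHCIIhi libraries again lay above all MHCIIlo libraries. The MHCII difference was 3.29-fold in Tspan8neg cells (log2 1.72, SE 0.15, edgeR adjusted p = 9.71e-06). In Tspan8pos cells it was 1.85-fold, with an edgeR adjusted p of 0.00205 but under the fold limit (log2 0.88, SE 0.15). Without replicate 2 of Tspan8pos MHCIIlo it was called (log2 1.09, edgeR adjusted p = 0.00827). The interaction for Ifi30 was 0.84 (SE 0.21) and did not pass the test (edgeR adjusted p = 0.0253).

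Over the 8 libraries, which are 4 subsets of 2 and not independent points of a trend, the log2 levels of Ctss and Ctsz had Pearson's r of 0.969, those of Ctsz and Ifi30 0.955 and those of Ctsl and Ifi30 -0.939. These describe the subset pattern and carry no test.

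Ctsd (cathepsin D, chr7:142375911-142388038, minus strand) was called for Tspan8 and not for MHCII. Its levels were 152 and 219 CPM in Tspan8neg MHCIIlo, 98.2 and 124 CPM in Tspan8neg MHCIIhi, 684 and 659 CPM in Tspan8pos MHCIIhi and 871 and 856 CPM in Tspan8pos MHCIIlo. Every Tspan8pos library was above every Tspan8neg library. The difference was 4.65-fold in MHCIIlo (log2 2.22, SE 0.18, edgeR adjusted p = 4.12e-06) and 6.03-fold in MHCIIhi (log2 2.59, SE 0.18, edgeR adjusted p = 1.71e-06). Within each Tspan8 class Ctsd was somewhat lower in MHCIIhi, by log2 values of -0.74 (SE 0.18) and -0.36 (SE 0.17), neither called. The gene Gm49369 shares exons with Ctsd on the same strand and had 0 to 8 counts.

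Ctsb (cathepsin B, an endo- and exopeptidase, chr14:63122462-63145923, plus strand) had the same order with a smaller difference. It was at 211 and 205 CPM in Tspan8neg MHCIIlo, at 183 and 190 CPM in Tspan8neg MHCIIhi, at 411 and 380 CPM in Tspan8pos MHCIIhi and at 411 and 409.7 CPM in Tspan8pos MHCIIlo. The Tspan8 classes did not overlap. It was 2.12-fold higher in Tspan8pos cells of MHCIIhi (log2 1.08, SE 0.12, edgeR adjusted p = 4.29e-05), which is just inside the fold limit and was lost without replicate 1 of Tspan8neg MHCIIhi (log2 0.98). In MHCIIlo it was 1.98-fold higher, just outside the limit (log2 0.98, SE 0.12, edgeR adjusted p = 8.43e-05). Between the MHCII levels it differed by log2 values of -0.15 (SE 0.12) and -0.05 (SE 0.12), neither called. Ctsb shares exon sequence with Fdft1 on the opposite strand, which had 100 to 452 counts, against at least 747 for Ctsb.

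Markers of mature cell types also differed between the Tspan8 classes. A list of 6 markers of cornified cells summed to 78.6 to 150 CPM in Tspan8neg and to 3321 to 3969 CPM in Tspan8pos libraries, and a list of 5 microfold markers to 550 to 802 CPM and 1659 to 2977 CPM. A list of 5 tuft markers summed to 5747 to 5865 CPM in Tspan8pos MHCIIlo and to 935 to 1077 CPM in Tspan8pos MHCIIhi. Its sums were 913 to 1232 CPM in Tspan8neg MHCIIlo and 135 to 151 CPM in Tspan8neg MHCIIhi. Within each MHCII class the tuft sum was thus higher in Tspan8pos. The part of these cell types in the Ctsd and Ctsb values was not tested.

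Ctsh (cathepsin H, an aminopeptidase, chr9:90054152-90076089, plus strand) was low in 1 subset. It was at 39.6 and 55.9 CPM in Tspan8neg MHCIIlo, at 289 and 311 CPM in Tspan8neg MHCIIhi, at 330 and 304 CPM in Tspan8pos MHCIIhi and at 283 and 287 CPM in Tspan8pos MHCIIlo. The last 3 subsets lay within 283 to 330 CPM, and Tspan8neg MHCIIlo was far under them. Ctsh was thus 6.25-fold higher with MHCII in Tspan8neg cells (log2 2.64, SE 0.17, edgeR adjusted p = 1.54e-06) and 5.95-fold higher with Tspan8 in MHCIIlo cells (log2 2.57, SE 0.17, edgeR adjusted p = 9.05e-07). The MHCII difference in Tspan8pos cells was 0.15 (SE 0.16) and the Tspan8 difference in MHCIIhi cells 0.08 (SE 0.15) on the log2 scale, neither called. The interaction was 2.49 (SE 0.23, edgeR adjusted p = 0.000234), and all 3 calls held in each of the 8 fits without 1 library.

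A list of 16 myeloid and dendritic markers was likewise lowest in Tspan8neg MHCIIlo, with sums of 88.5 and 152 CPM against 496 to 573 CPM in Tspan8neg MHCIIhi, 482 to 516 CPM in Tspan8pos MHCIIhi and 215 to 219 CPM in Tspan8pos MHCIIlo. Its leading gene was Lyz2, at 26.1 and 53.1 CPM in Tspan8neg MHCIIlo and between 63.8 and 331 CPM elsewhere. Itgax, the gene of the dendritic marker CD11c, had the opposite order, with 9.27 and 25.7 CPM in Tspan8neg MHCIIlo and at most 6.15 CPM in the other libraries, and it was at 0 in replicate 1 of Tspan8pos MHCIIlo, where 6 of the 16 markers were at 0. The part of myeloid cells in the values of Ctsh, Ctss, Ctsz and Ifi30 was not tested.

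Cst3 (cystatin C, chr2:148871722-148875692, minus strand) was at 138 and 158 CPM in Tspan8neg MHCIIlo, at 152 and 193 CPM in Tspan8neg MHCIIhi, at 257 and 277 CPM in Tspan8pos MHCIIhi and at 198 and 161 CPM in Tspan8pos MHCIIlo. Only Tspan8pos MHCIIhi lay above all other libraries. Its largest difference between subsets, 1.8-fold between Tspan8pos MHCIIhi and Tspan8neg MHCIIlo, stayed under the fold limit (log2 0.85, SE 0.16, edgeR adjusted p = 0.00145). In MHCIIhi cells the Tspan8 difference was 0.63 (SE 0.16) on the log2 scale with an edgeR adjusted p of 0.0097, also under that limit.

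Lgmn (legumain, chr12:102394084-102439813, minus strand) varied least. It lay between 27.2 and 41.9 CPM in all 8 libraries, and neighbouring subsets overlapped in the order of their means. Over the 6 pairs of subsets its log2 differences lay between -0.41 and 0.22, and none passed the test. The SEs were 0.18 to 0.19. Even the difference of -0.41 (SE 0.18), with MHCII in Tspan8neg cells, did not pass (edgeR adjusted p = 0.0909). Differences of up to that size could therefore not be told from none.

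Across all 10 genes, in MHCIIlo cells 2 were higher (Ctsd, Ctsh) and 2 lower (Ctsl, Prss16) in Tspan8pos, against 12.1% and 9.34% of all genes tested. In MHCIIhi cells 2 were higher (Ctsd, Ctsb) and 0 lower, against 11.0% and 7.45% of all genes. With MHCII, 4 were higher (Ctss, Ctsz, Ifi30, Ctsh) and 1 lower (Ctsl) in Tspan8neg cells, against 13.1% and 9.67% of all genes. In Tspan8pos cells 2 were higher (Ctss, Ctsz) and 0 lower, against 4.59% and 2.62%. The interaction was called for 1 gene in each direction, Ctsh and Ctsl, against 2.36% and 2.24%. The plot of fold changes sets the 4 comparisons side by side, in which each subset serves in more than 1 comparison.

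**Figure D2:**
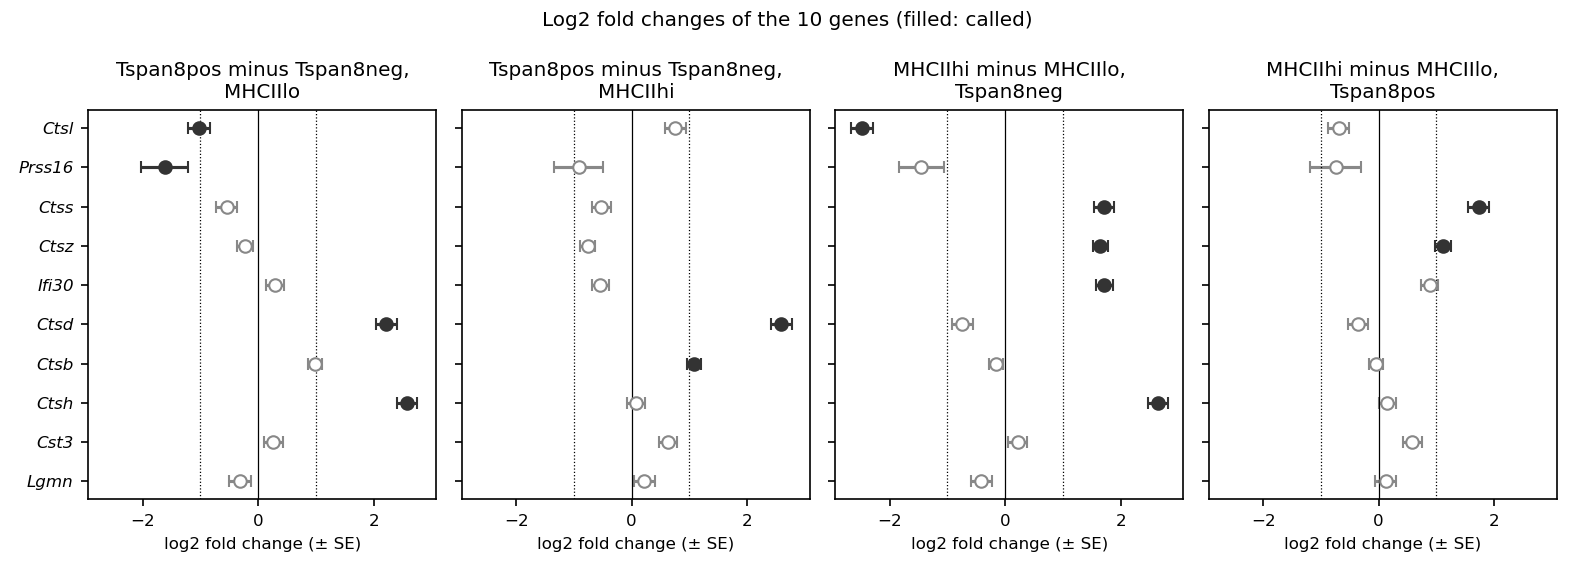
Log2 fold changes (points) with their SE (lines) of the 10 genes in the 4 comparisons between neighbouring subsets. Filled points are called (edgeR adjusted p under 0.01 and log2 fold change of at least 1 in size, dotted lines). Ctsd is to the right in both Tspan8 panels (2.22 and 2.59), Ctss and Ctsz are to the right in both MHCII panels, and Ctsl and Ctsh change position between panels of the same kind.

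The remaining pairs of subsets differ in both markers at once. Between Tspan8pos MHCIIhi and Tspan8neg MHCIIlo, 4 members were higher (Ctsh, Ctsd, Ctss, Ifi30) and 2 lower (Prss16, Ctsl), against 14.4% and 10.3% of all genes. Between Tspan8pos MHCIIlo and Tspan8neg MHCIIhi, 3 were higher (Ctsd, Ctsl, Ctsb) and 3 lower (Ctss, Ctsz, Ifi30), against 14.7% and 14.6%. Ctsz was called in the former pair without replicate 2 of Tspan8neg MHCIIlo (log2 1.01), and Prss16 was not without replicate 1 of Tspan8pos MHCIIhi (edgeR adjusted p = 0.0162). The widest gaps were 7.76-fold for Ctsd in the latter pair and 6.61-fold for Ctsh in the former.

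To set the genes' levels beside each other, counts were divided by the length of all annotated exons and scaled to the same total in each library (TPM). Among the 6 cathepsins Ctsl, Ctss, Ctsb, Ctsh, Ctsz and Ctsd, the summed level was 1167 and 1211 TPM in Tspan8neg MHCIIlo, 1787 and 1872 TPM in Tspan8neg MHCIIhi, 2030 and 2040 TPM in Tspan8pos MHCIIhi and 1976 and 2045 TPM in Tspan8pos MHCIIlo. The gene with the highest mean share of that sum changed between subsets. It was Ctsl in Tspan8neg MHCIIlo (33.3% ± 10.4, SD, n = 2), Ctsz in Tspan8neg MHCIIhi (46.6% ± 2.65) and Ctsd in Tspan8pos MHCIIhi (41.5% ± 0.44) and Tspan8pos MHCIIlo (56.5% ± 0.75). In replicate 2 of Tspan8neg MHCIIlo, Ctsl and Ctsd had equal shares, 25.95% and 25.94%.

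Gene length matters for these shares, since the exons of Ctsl span 6489 bp but its shortest principal transcript only 1971 bp, and those of Ctsh 4499 and 1617 bp. With the length of the shortest principal transcript, a choice added once the values were known, the leading genes were Ctsl in Tspan8neg MHCIIlo (58.1% ± 11.5), Ctsz in Tspan8neg MHCIIhi (34.8% ± 2.02) and Ctsd in the Tspan8pos subsets (33.4% ± 0.17 and 42.5% ± 0.85), as before. The summed level then lay between 1368 and 1574 TPM in Tspan8neg MHCIIlo and between 1560 and 1642 TPM in Tspan8neg MHCIIhi, which overlapped.

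**Figure D3:**
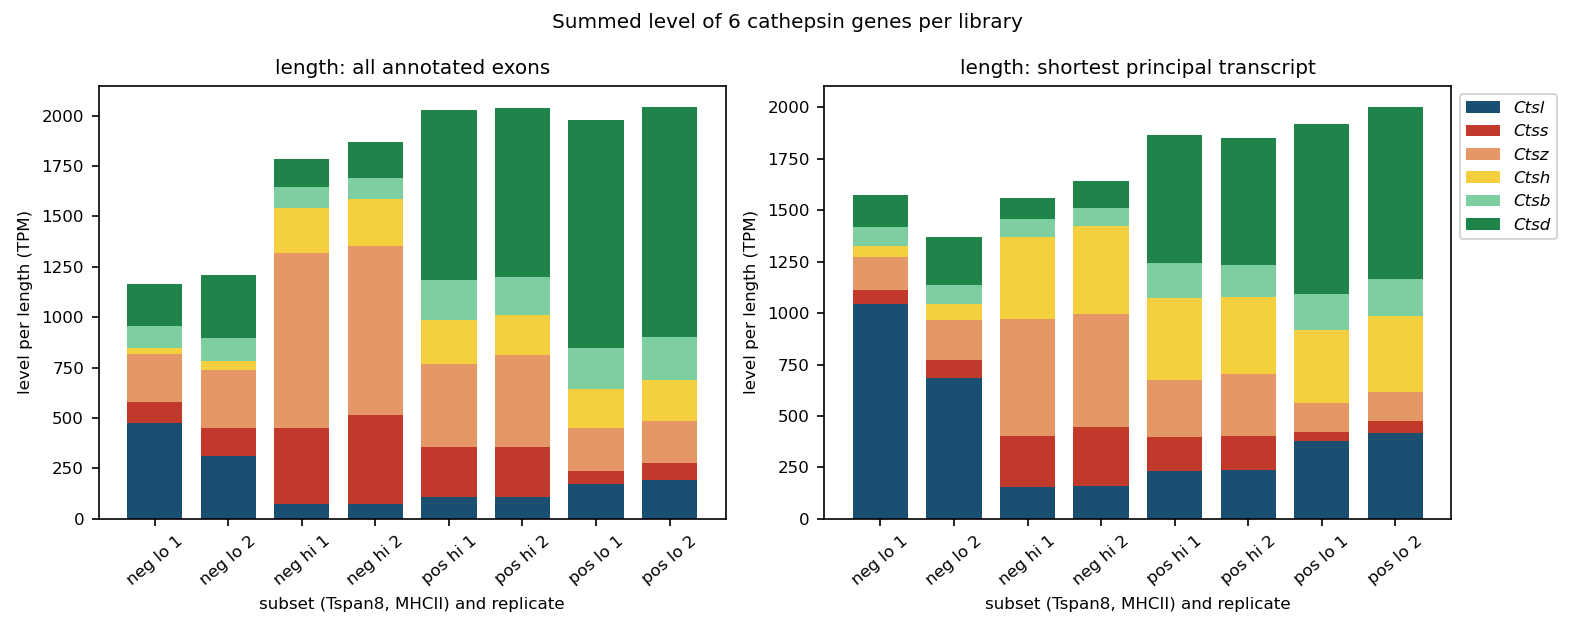
Stacked levels per length (TPM) of 6 cathepsin genes in each of the 8 libraries, with the length of all annotated exons at left and of the shortest principal transcript at right. Each colour is a gene. With either length the largest segment is Ctsl in neg lo replicate 1, Ctsz in neg hi, and Ctsd in the pos libraries.

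The ratio of Ctsl to Ctss, the proteases known for invariant chain removal in cTECs and dendritic cells, was 4.52 and 2.29 in Tspan8neg MHCIIlo, 0.193 and 0.169 in Tspan8neg MHCIIhi, 0.428 and 0.446 in Tspan8pos MHCIIhi and 2.66 and 2.21 in Tspan8pos MHCIIlo (TPM over all exons). Both MHCIIlo subsets were above 1 and both MHCIIhi subsets below it, and the MHCIIlo and MHCIIhi libraries did not overlap. With the principal transcript length the ratios were 14.9 and 7.51, 0.633 and 0.557, 1.40 and 1.47, and 8.73 and 7.27 in the same order, so the side of 1 on which Tspan8pos MHCIIhi falls depends on the length. A change of length multiplies the ratio by the same factor in every library.

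The wider machinery was described with lists of related genes. Of the other cathepsins, 8 of 17 were tested. Ctsa (protective protein, a serine carboxypeptidase) and Ctsc (dipeptidyl peptidase that activates granule proteases) rose with Tspan8 as Ctsd did. Ctsa was at 106 and 133 CPM in Tspan8neg MHCIIlo, 63.4 and 73.8 CPM in Tspan8neg MHCIIhi, 320 and 326 CPM in Tspan8pos MHCIIhi and 423 and 456 CPM in Tspan8pos MHCIIlo. Its log2 fold changes were 1.88 (SE 0.15) in MHCIIlo and 2.23 (SE 0.15) in MHCIIhi, with edgeR adjusted p of 3.64e-06 and 1.31e-06. Ctsc differed by 1.30 (SE 0.16) and 1.29 (SE 0.15), with edgeR adjusted p of 7.71e-05 and 7.18e-05. In either MHCII class 2 of the 8, Ctsa and Ctsc, were called higher in Tspan8pos, against 12.1% and 11.0% of all genes. In MHCIIlo 1 (Ctsw, at low counts) was lower, against 9.34% of all genes. Ctsj passed the filter with 0 counts in every MHCIIlo library, so no median over this list is given.

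Of 22 protease inhibitors, 10 were tested, and most were at low counts. Cst6 (cystatin M, an inhibitor of cathepsin L and of legumain) was at 11.0 and 21.7 CPM in Tspan8neg MHCIIlo, 52.2 and 63.1 CPM in Tspan8neg MHCIIhi, 352 and 447 CPM in Tspan8pos MHCIIhi and 555 and 577 CPM in Tspan8pos MHCIIlo. It was thus highest where Ctsd was highest, and its libraries did not overlap between subsets. The Tspan8 difference was 34.2-fold in MHCIIlo (log2 5.09, SE 0.27, edgeR adjusted p = 2.4e-07) and 6.90-fold in MHCIIhi (log2 2.79, SE 0.23, edgeR adjusted p = 4.7e-06), with an interaction of 2.31 (SE 0.33, edgeR adjusted p = 0.0018). Ctla2a, an inhibitor related to the cathepsin L propeptide, was lower with MHCII in Tspan8neg cells, as Ctsl was. It was 2.86-fold lower in MHCIIhi (log2 -1.52, SE 0.29, edgeR adjusted p = 0.00175). Several other inhibitors passed the filter on low counts while at or near 0 in Tspan8neg MHCIIlo, such as Stfa3 with 0 counts in both of its libraries, so no count or median over this list is given.

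Of 8 other lysosomal peptidases, 3 were called higher with MHCII in Tspan8neg cells and 0 lower, against 13.1% and 9.67% of all genes. In Tspan8pos cells of MHCIIlo 2 were higher and 1 lower, against 12.1% and 9.34% of all genes. Scpep1 (a serine carboxypeptidase) rose 3.49-fold with MHCII in Tspan8neg cells (log2 1.8, SE 0.16, edgeR adjusted p = 1.12e-05), and its interaction was called (log2 1.58, SE 0.23, edgeR adjusted p = 0.00171). Dpp7 (a dipeptidyl peptidase) was 2.82-fold and 2.95-fold higher in Tspan8pos cells of MHCIIlo and MHCIIhi, and Ggh (gamma-glutamyl hydrolase) was 2.72-fold higher in Tspan8pos cells of MHCIIlo. Of 15 other lysosomal hydrolases, 3 were called higher and 0 lower in Tspan8pos cells of either MHCII class. Of all genes 12.1% and 11.0% were higher and 9.34% and 7.45% lower. Fuca1 (alpha-fucosidase, log2 1.39 in MHCIIlo and 1.53 in MHCIIhi) and Smpd1 (acid sphingomyelinase, 1.47 and 1.32) were called higher with Tspan8 in both MHCII classes. Glb1 (beta-galactosidase) instead rose with MHCII, by 1.61 (SE 0.16) in Tspan8neg and 1.38 (SE 0.16) in Tspan8pos cells.

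Of 20 genes of the lysosomal membrane and of acidification, which cathepsins need for activity, 5 were called higher in Tspan8pos cells of MHCIIlo and 0 lower, against 12.1% and 9.34% of all genes, with a list median of 0.82 against -0.03 over all genes. In MHCIIhi 1 was higher and 0 lower, below the 11.0% and 7.45% of all genes, with a median of 0.51. With MHCII, 4 were higher and 1 lower in Tspan8neg cells, against 13.1% and 9.67%. Of the 4, Atp6v0d2 had only 1 and 0 counts in Tspan8neg MHCIIlo and 10 and 25 in Tspan8neg MHCIIhi, so its call rests on a base near 0. Atp6v0a1, a proton pump subunit, was, like Ctsh, lowest in Tspan8neg MHCIIlo. It was at 151 and 143 CPM in Tspan8neg MHCIIlo and between 281 and 514 CPM in the other 6 libraries, with a called interaction (log2 1.29, SE 0.17, edgeR adjusted p = 0.0013). Atp6v1b2, another pump subunit, was 3.01-fold and Cd68, a lysosomal glycoprotein also used as a macrophage marker, 3.26-fold higher in Tspan8pos cells of MHCIIlo. Scarb2, a lysosomal membrane protein, fell by 1.69 on the log2 scale with MHCII in Tspan8neg cells (SE 0.21, edgeR adjusted p = 9.66e-05), as Ctsl did.

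In each of the 4 comparisons, 2.62% to 13.1% of all genes were called per direction. Of 12 tested genes of lysosomal sorting and the TFE factors, only Sort1 was called in any of them. Sortilin, its product, sorts hydrolases to lysosomes, and its level was 97.7 and 149 CPM in Tspan8neg MHCIIlo, 58.0 and 69.9 CPM in Tspan8neg MHCIIhi, 220 and 227 CPM in Tspan8pos MHCIIhi and 447 and 451 CPM in Tspan8pos MHCIIlo. The Tspan8 difference was 1.86 (SE 0.19) in MHCIIlo and 1.8 (SE 0.19) in MHCIIhi on the log2 scale, with edgeR adjusted p of 1.97e-05 and 2.91e-05. Within Tspan8pos cells Sort1 was also called lower in MHCIIhi than in MHCIIlo (log2 -1.01, SE 0.18, edgeR adjusted p = 0.00327). Within Tspan8neg cells it was lower in MHCIIhi by a log2 value under the fold limit (-0.95, SE 0.19, edgeR adjusted p = 0.00215). Of 15 macroautophagy genes 2 were called lower and 0 higher with MHCII in Tspan8neg cells, against 9.67% and 13.1% of all genes. These were Ulk1 (the initiating kinase) and Map1lc3a (an LC3 protein), lower by 2.50-fold and 2.20-fold. In the other neighbouring comparisons 0 were called, where 2.62% to 12.1% of all genes were per direction.

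MHC class II and its loading genes are bound to the sort, since MHCII protein was a sort criterion, and serve here as a scale. Of the 10 genes, 9 and 10 were called higher with MHCII in Tspan8neg and Tspan8pos cells, against 13.1% and 4.59% of all genes, with medians of 1.49 and 2.40. Against that, 9 were lower in Tspan8pos cells of MHCIIlo and 6 in MHCIIhi (medians -1.64 and -1.10), where 9.34% and 7.45% of all genes were. In the same Tspan8pos against Tspan8neg comparisons Ctss was at -0.54 and -0.52, Ctsz at -0.23 and -0.76 and Ifi30 at 0.29 and -0.54, none called. H2-DMb2 differed by -2.89, H2-Oa by -1.84, Ciita, the class II transactivator, by -2.79 and H2-Aa by -1.76 on the log2 scale in MHCIIlo, all called. The plot of lists shows the spread of each list in the 4 comparisons.

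**Figure D4:**
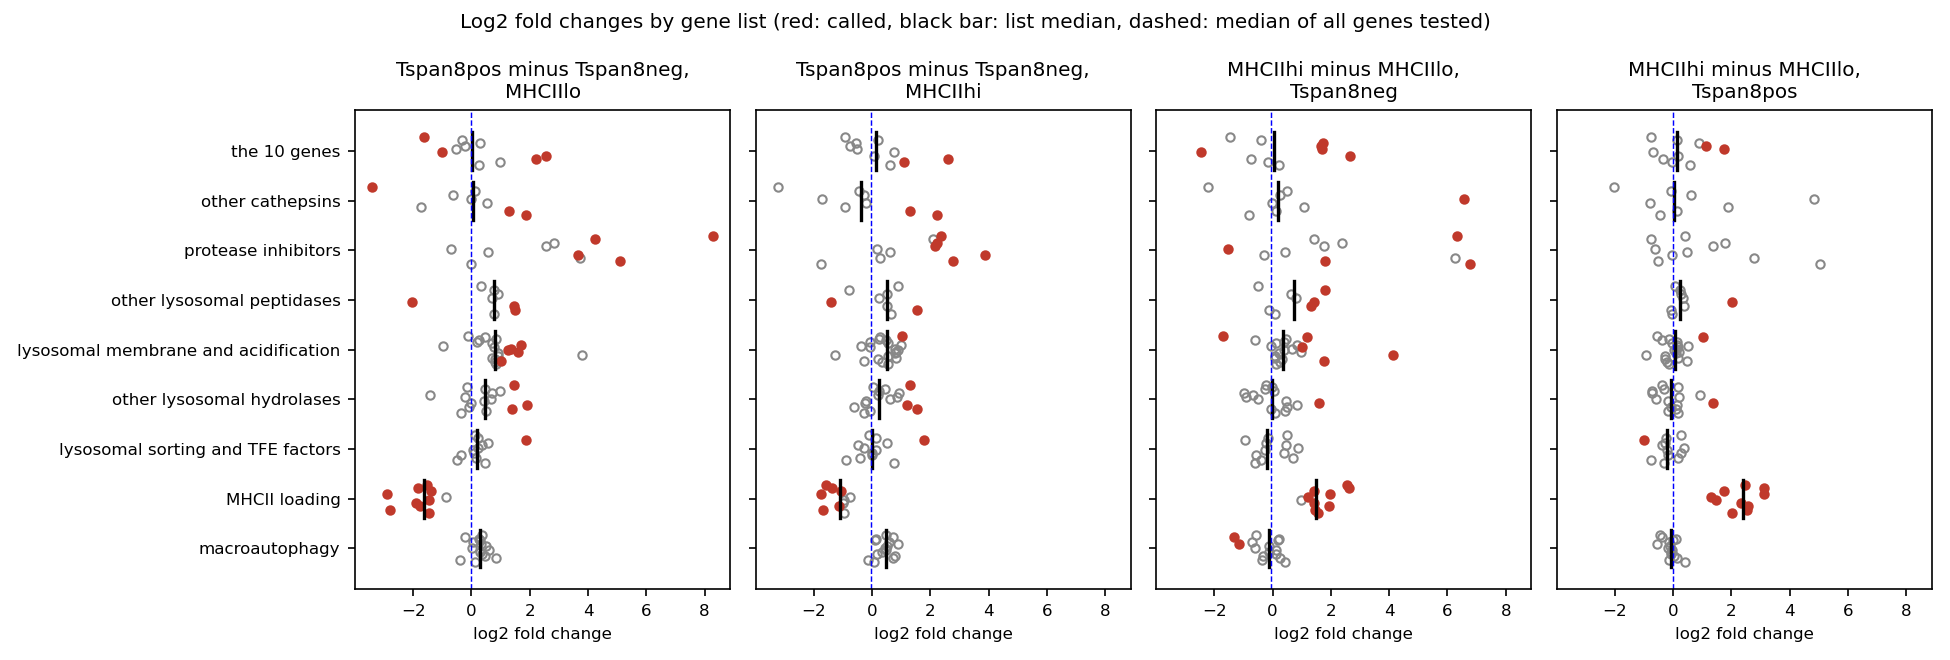
Log2 fold changes of the tested genes of each list in the 4 comparisons between neighbouring subsets. Each circle is a gene, red where called, the black bar is the list median (not drawn for the protease inhibitors) and the dashed line the median of all 17006 genes. The bar of the other cathepsins includes Ctsj, which had 0 counts in every MHCIIlo library. The MHCII loading list lies at -1.64 and -1.10 in the Tspan8 panels and at 1.49 and 2.40 in the MHCII panels, while the medians of the 10 genes stay between 0.02 and 0.15.

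Finally, for each member the most similar genes were sought in the 11024 genes averaging 10 CPM or more, by Pearson's r of log2 levels over the 8 libraries. The nearest were Kansl1 for Ctsl (r = 0.9895), Spock3 for Ctss (0.9924), Calca for Ctsz (0.999) and Il27 for Ifi30 (0.9941). For the Tspan8-linked members they were Pfkfb2 for Ctsd (0.9975) and Kifc3 for Ctsb (0.9987), and for Ctsh it was Dnase1l3 (0.9933). The values were 0.968 for Cst3 with Ehhadh, 0.9542 for Lgmn with Ccdc141 and 0.9949 for Prss16 with Usp39. With 4 subset means behind 8 points, such values are high for many genes and describe the pattern only.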

How the data were processed

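Per the labels and the study's methods, RNA of sorted mTECs was preamplified, tagmented and sequenced, and the authors quantified reads with Salmon 1.8.0 on mm10 transcripts; the labels name a stranded kit and the methods a tagmentation protocol, so strand use is not settled. The deposited gene table holds estimated counts, not normalized, given as whole numbers; every gene has counts in at least 2 libraries. Symbols came from GENCODE vM21 (GRCm38) by Ensembl identifier, and 130 of 25466 identifiers had no match. Whole-number counts of 8 libraries were fitted with edgeR 4.0.16 (R 4.3.3; TMM, filterByExpr, quasi-likelihood, 1 mean per subset), with Benjamini-Hochberg adjustment over 17006 genes. The SE is the log2 fold change divided by the root of F. The 3-count limit was 0.385 to 1.55 CPM and covers counting error only. Replicates differed by more than sampling noise and were kept apart. The mean chi-square per gene between the replicates of a subset was 10.6 in Tspan8neg MHCIIlo and 3.47 to 5.63 in the other subsets. The fit estimates the spread of a gene over all 8 libraries together, so the SEs do not reflect the wider spread of Tspan8neg MHCIIlo. Alternatives were DESeq2 1.42.0 (its Wald test and its size factors), filters, thresholds, a replicate block, smaller fits, single libraries left out and gene lengths. The members and lists were chosen with earlier results of these data known. Named list genes were those called in at least 1 of the 4 neighbouring comparisons, at most the 4 with the largest change and a mean of at least 10 CPM; motifs and gene names beyond that rule are descriptions. The scripts were tested on simulated data. The result for 1 gene of the lists is not reported here.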

Additional observations from a re-analysis of the deposited data

Results flagged for a closer look

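In 2 members the Tspan8 difference depended on MHCII by the test of the difference itself, the interaction term of the edgeR fit. For Ctsl the log2 ratio of Tspan8pos to Tspan8neg in MHCIIlo minus that in MHCIIhi was -1.78 (SE 0.26, adjusted p = 0.00198), with ratios of -1.02 in MHCIIlo and 0.76 in MHCIIhi. This call was lost in 6 of the 8 fits without 1 library (adjusted p of 0.011 to 0.0172), with log2 values between -1.84 and -1.69. For Ctsh it was 2.49 (SE 0.23, adjusted p = 0.000234), with ratios of 2.57 and 0.08, and the call held in all 8 such fits. The other 8 members did not pass this test, which does not show that their differences were equal.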

How the results depend on the processing

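No member's called direction reversed under any alternative. In MHCIIlo, 4 members were called between the Tspan8 classes, and 2 were called when only the 4 libraries of the comparison were fitted (adjusted p of 0.0108 for Ctsl and 0.0208 for Prss16); leaving out 1 library gave 2 to 4. In MHCIIhi, 2 were called, 5 with no limit on the fold change and 1 to 2 with 1 library left out. With MHCII, 5 to 6 were called in Tspan8neg and 2 to 2 in Tspan8pos cells with 1 library left out. The interaction gave 1 to 2, Tspan8pos MHCIIhi against Tspan8neg MHCIIlo 5 to 7, and Tspan8pos MHCIIlo against Tspan8neg MHCIIhi 6 to 6. The cause of these changes was not tested beyond the construction of each alternative. Same-numbered libraries deviated together with correlations of 0.0121 to 0.124 over pairs of subsets, and the sources do not say that a number marks shared mice, so the numbers were not taken as pairs. Fitting the replicate number as a block, the total of genes called rose from 3640 to 3792 (Tspan8 in MHCIIlo) and from 783 to 1236 (interaction), and Prss16 was called with MHCII in Tspan8neg cells (log2 -1.37, adjusted p = 0.000105); no other member call changed. In the smallest library, replicate 1 of Tspan8pos MHCIIlo with 1941518 counts, 3 counts correspond to 1.55 CPM, which all 10 members exceeded.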
